A study of Mus musculus with 36 samples.

Results

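The genes described here are 9 genes of the T helper 17 (Th17) programme, named Rora, Ahr, Batf, Stat3, Il23r, Ccr6, Il17a, Il17f and Il22, followed through 36 mouse spleens. Members were taken as the probe sets whose annotation names only one of these genes, which gave 18 of 45037 probe sets and 6 of the 9 genes. Rora had 9 such probe sets, Stat3 had 4, Ahr had 2, and Batf, Ccr6 and Il17a had 1 each. Il22 was listed only on a probe set shared with its near-identical copy Iltifb. Il17f and Il23r had no probe set naming them in the annotation used, so they could not be analysed here.

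Spleens were taken from F2 mice at 4 months, 18 with arthritis and 18 without, and each array holds total RNA of 1 spleen. By the series title, arthritis arose in animals deficient for Il1rn, which encodes the natural antagonist of the interleukin 1 receptor. The labels give no genotype, strain, sex or joint score for any single mouse, so whether the non-arthritic mice carry the same deficiency is not stated in the sources used here. The comparison asks which genes of spleen differ between mice that developed joint disease and mice that did not.

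Th17 cells are CD4 T cells that secrete interleukin 17 and recruit neutrophils to tissue. Interleukin 6 and transforming growth factor beta start the programme through Stat3 and retinoid-related orphan receptors, and IL-1 and IL-23 sustain it. In Il1rn-deficient mice, arthritis is known to depend on interleukin 17. In spleen, Th17 cells are a small share of all cells, and Stat3, Ahr, Batf, Rora and Ccr6 are also transcribed in other lymphoid, myeloid or stromal cells.

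The sequences before the start sites of Il17a, the cytokine that names the programme, and of Ccr6 and Stat3, whose levels are compared below, are shown because they hold or lack letters that the transcription factors of the set are known to bind. They are the 250 bases before each start, 5′ to 3′ on the strand of the gene, from RefSeq on build GRCm38.p6, at chr1:20730655-20730904 on the + strand for Il17a, chr17:8235793-8236042 on the + strand for Ccr6 and chr11:100939541-100939790 on the - strand for Stat3. Capitals mark motif matches on either strand, N being any base. AGGTCA is the core element of retinoid-related orphan receptors (ROR element), and TTCNNNGAA is the STAT site. TGANTCA is a loose form of the AP-1 site that Batf shares, and GCGTG is the core that the aryl hydrocarbon receptor binds.
Il17a: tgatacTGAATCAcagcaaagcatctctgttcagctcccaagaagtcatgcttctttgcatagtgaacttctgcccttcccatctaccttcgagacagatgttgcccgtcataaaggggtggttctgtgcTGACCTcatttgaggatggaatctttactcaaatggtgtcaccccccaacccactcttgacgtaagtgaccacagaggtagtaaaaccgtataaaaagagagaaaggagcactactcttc
Ccr6: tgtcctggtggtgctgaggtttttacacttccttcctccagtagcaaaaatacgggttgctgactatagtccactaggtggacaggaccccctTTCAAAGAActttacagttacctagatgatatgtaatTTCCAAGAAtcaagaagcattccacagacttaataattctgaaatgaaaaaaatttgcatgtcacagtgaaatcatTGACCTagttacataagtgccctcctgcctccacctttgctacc
Stat3: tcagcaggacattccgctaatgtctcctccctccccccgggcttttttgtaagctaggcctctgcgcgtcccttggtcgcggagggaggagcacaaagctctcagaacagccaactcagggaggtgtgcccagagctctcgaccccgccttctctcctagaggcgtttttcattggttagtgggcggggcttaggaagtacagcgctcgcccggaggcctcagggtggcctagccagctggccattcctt

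The Il17a stretch held 1 match to the loose AP-1 form, reading TGAATCA, and 1 match to the ROR element. The Ccr6 stretch held 2 STAT matches and 1 ROR element, and the Stat3 stretch held no match. Windows from 250 bases before to 50 bases after a start were found for 8 of the 9 genes, with no entry for Ahr, and Ccr6 had 2 windows. Over those windows the ROR element was also present in Il17f, with 1 match, and in Il23r, with 2 matches. Rora and Stat3 held 1 GCGTG core each, that of Stat3 lying after the start, whereas Batf, Il22 and the second Ccr6 window held none of the 4 motifs. No matches overlapped in these windows. Of 32851 RefSeq windows of the same length, 16.3% held the ROR element, 7.81% the AP-1 letters, 8.3% the STAT letters and 32.4% the GCGTG core, and the matches are given as a description only.

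The values are MAS5 intensities, given here as log2(intensity + 16), and a level under 6.49, the 40th percentile of all probe set means, is called array background. Every array had been scaled to the same trimmed mean, and the median intensity of an array ran from 110.6 to 183.2. Arrays were split by their hybridisation controls, bacterial transcripts added to each sample, into 3 clusters that the labels do not name. Cluster A held 9 arthritic and 4 non-arthritic arrays, cluster B held 6 and 10, and cluster C held 3 and 4. The clusters partly follow the sample numbers, cluster A being arthritic mice 1 to 9 and non-arthritic mice 1, 2, 5 and 6. In all, 48.1% of the 27022 probe sets above background differed between clusters, so the differences of the brightest probe set of each gene above background, and of a dimmer one each of Ahr and Stat3, are also given within clusters. Spleen markers were present in both groups: all 9 T cell markers with a probe set and all 8 B cell markers lay above background, as did all 7 erythroid markers. The mean level of the T cell list ran from 8.70 to 10.13 in the arthritic group and from 8.97 to 9.96 in the other. That of the B cell list ran from 11.73 to 12.65 and from 11.79 to 12.47. Transcripts of the exocrine pancreas stood far above the other arrays in arthritic mouse 8 and non-arthritic mice 5 and 6. All 3 arrays lay in cluster A, whose differences were not refitted without them. Without these 3 arrays, as with them, 0 of the 14 tested probe sets of the set were called between groups.

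Of the 6 genes with a probe set of their own, 5 (Rora, Ahr, Batf, Stat3 and Ccr6) were above array background in the mean over the 36 mice. Il17a, the only cytokine of the set with a probe set of its own, was below it. As a second yardstick, 80 probe sets of olfactory and vomeronasal receptors, which spleen is not known to transcribe, had a median of 5.43 and a 95th percentile of 6.75. The same 5 genes had a probe set above that percentile. By position among all probe sets, the brightest probe set of Stat3 lay at percentile 96.6, that of Ccr6 at 93.3, that of Ahr at 81.7, Batf at 75.1 and the brightest of Rora at 66.6. The brightness of a probe set depends on its probes as well as its transcript, so no order of the genes is read from it.

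**Figure D1:**
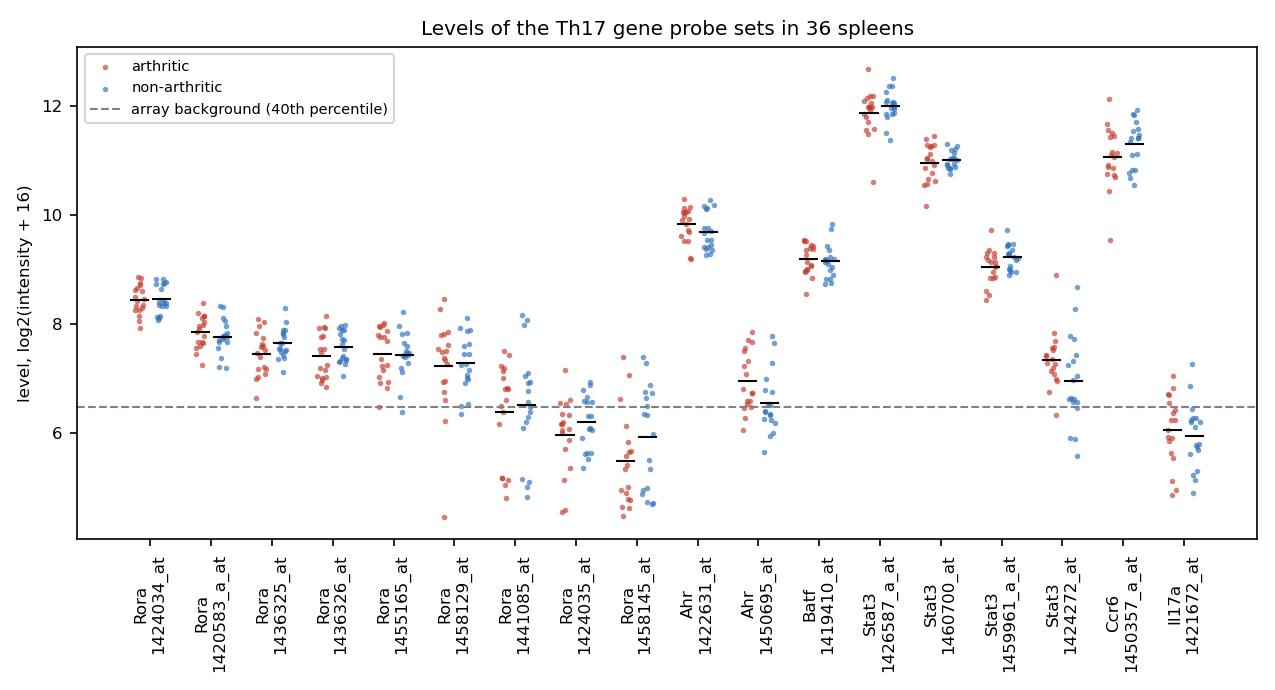
Level of each probe set of Rora, Ahr, Batf, Stat3, Ccr6 and Il17a, as log2(intensity + 16), with 1 point per mouse, 18 arthritic and 18 non-arthritic, a black line at each group mean and a dashed line at the array background of 6.49. The groups overlap in every probe set, and most Il17a points lie under the dashed line.

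Il17a, the signature cytokine of Th17 cells, averaged 6.06 ± 0.64 in the arthritic group against 5.95 ± 0.61 in the other (SD, n = 18 each), both under the background. In arthritic mice it ran from 4.88 over a median of 6.15 to 7.06, and in non-arthritic mice from 4.90 over 5.96 to 7.27. The groups overlapped along their whole range, and the highest mouse of each group carried the number 1. Il17a exceeded background in 7 of 36 mice, arthritic mice 1, 2, 8, 9 and 18 and non-arthritic mice 1 and 6. In the fit that kept dim probe sets, the difference was 0.11 with a standard error of 0.21 and an adjusted p of 0.896 by limma, and 0.0% of 45037 probe sets were called there, with 11.4% under an unadjusted p of 0.05. Its mean was 6.39 in cluster A, 5.83 in cluster B and 5.69 in cluster C. A spleen-wide level this low cannot show whether a small number of cells made Il17a. Il22, which acts on epithelial cells, was listed only with Iltifb, on a probe set with a mean of 4.78, a range from 4.12 to 6.32 and no mouse above background.

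Rora encodes retinoid-related orphan receptor alpha, a nuclear receptor that acts in Th17 differentiation and in innate lymphoid cells. Its brightest probe set, 1424034_at, ran from 7.93 over a median of 8.44 to 8.87 in arthritic mice and from 8.08 over 8.40 to 8.82 in non-arthritic mice. The ranges overlapped nearly throughout, and the difference was -0.01 (SE 0.09, 95% interval -0.20 to 0.17, adjusted p = 0.957 by limma). By cluster it was -0.11 (A, SE 0.16), 0.18 (B, SE 0.13) and -0.06 (C, SE 0.21), and with the cluster as a block 0.03. In bulk spleen, fewer cells of a type and less RNA per cell cannot be told apart, for Rora and for every gene below. Of the other Rora probe sets, 5 were tested and gave differences of 0.09 for 1420583_a_at (adjusted p = 0.719), -0.20 for 1436325_at (0.408), -0.17 for 1436326_at (0.503), 0.01 for 1455165_at (0.989) and -0.04 for 1458129_at (0.954). None passed the threshold. The last of these had its lowest value, 4.47, in arthritic mouse 16, and its mean was 7.72 in cluster A and 6.90 in cluster B. The 3 dim Rora probe sets, 1441085_at, 1424035_at and 1458145_at, had means of 6.45, 6.09 and 5.72 and exceeded background in 20, 11 and 10 mice. Their differences in the fit that kept dim probe sets were -0.12, -0.23 and -0.43, none of which passed (adjusted p of 0.923, 0.716 and 0.588).

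Ahr encodes the aryl hydrocarbon receptor, a ligand-activated factor that promotes Il22 transcription in Th17 and innate lymphoid cells. Probe set 1422631_at ran from 9.20 over a median of 9.92 to 10.29 in arthritic mice and from 9.27 over 9.61 to 10.27 in non-arthritic mice. In 14 of 18 arthritic mice it lay above the non-arthritic median, and the difference of 0.14 did not pass the threshold (SE 0.11, 95% interval -0.08 to 0.35, adjusted p = 0.537). By cluster this difference was -0.14 (A, SE 0.17), 0.10 (B, SE 0.14) and 0.37 (C, SE 0.19). The dimmer Ahr probe set, 1450695_at, ran from 6.05 over 6.78 to 7.86 in arthritic and from 5.65 over 6.40 to 7.78 in non-arthritic mice. The groups again overlapped, with 14 arthritic and 8 non-arthritic mice above background. Its difference of 0.40 was the largest of the tested probe sets of the set (SE 0.18, 95% interval 0.03 to 0.77), with an unadjusted p of 0.036 and an adjusted p of 0.283. This probe set also differed between spike-in clusters (adjusted p = 1.84e-05), at 7.35 ± 0.42 in cluster A (n = 13), 6.37 ± 0.32 in cluster B (n = 16) and 6.54 ± 0.40 in cluster C (n = 7). With the cluster as a block the difference was 0.15 (adjusted p = 0.695 by limma). Cluster by cluster it was -0.04 (A, SE 0.25), 0.14 (B, SE 0.20) and 0.48 (C, SE 0.34).

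Batf encodes an AP-1 factor that opens Th17 genes together with Irf4. Its level ran from 8.55 over a median of 9.20 to 9.54 in arthritic mice and from 8.73 over 9.16 to 9.84 in non-arthritic mice. The groups overlapped, and the difference was 0.04 (SE 0.10, 95% interval -0.15 to 0.24, adjusted p = 0.862). Within clusters the Batf difference was -0.37 in A (SE 0.18), 0.29 in B (SE 0.11) and 0.04 in C (SE 0.16). A test of whether the group difference depended on the cluster had an unadjusted p of 0.00832 and an adjusted p of 0.150 for Batf, and 0 of the 14 member probe sets passed it, where 0.037% of all tested probe sets did. At an unadjusted p under 0.05, 2 of the 14 did, with 16.7% over all tested probe sets.

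Stat3 encodes the transcription factor that carries signals of IL-6, IL-21 and IL-23 to the nucleus. Its brightest probe set, 1426587_a_at, ran from 10.60 over a median of 11.97 to 12.67 in arthritic mice and from 11.38 over 12.02 to 12.52 in non-arthritic mice. Arthritic mice 14 and 10 were the lowest and the highest of all 36, and the non-arthritic mice lay between them. The difference was -0.13 (SE 0.11, 95% interval -0.36 to 0.11, adjusted p = 0.607 by limma). By cluster it was 0.11 (A, SE 0.14), -0.34 (B, SE 0.21) and 0.04 (C, SE 0.13). Probe set 1460700_at differed by -0.06 (SE 0.09, adjusted p = 0.784), 1459961_a_at by -0.19 (SE 0.09, unadjusted p = 0.046, adjusted p = 0.309) and 1424272_at by 0.38 (SE 0.22, adjusted p = 0.388). None of the 4 Stat3 probe sets passed the threshold, and their estimates did not share a sign. The dimmest, 1424272_at, had differences of -0.64 in cluster A (SE 0.33), 0.49 in B (SE 0.22) and 0.87 in C (SE 0.37). Its mean was 7.67 in cluster A and 6.57 in cluster C. In the limma test of whether the group difference depended on the cluster, it had an unadjusted p of 0.00526 and an adjusted p of 0.129. These were the lowest of the 14 member probe sets.

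Ccr6 encodes the receptor for the chemokine Ccl20, which guides Th17 cells and B cells into inflamed tissue. It ran from 9.54 over a median of 11.08 to 12.12 in arthritic mice and from 10.56 over 11.40 to 11.92 in non-arthritic mice. The groups overlapped, the extremes being arthritic mice 14 and 10, the same pair as for Stat3. The mean was 11.06 ± 0.56 against 11.30 ± 0.43 (SD, n = 18 each), a difference of -0.24 (SE 0.16, 95% interval -0.56 to 0.08, adjusted p = 0.453). Within clusters A, B and C the Ccr6 difference was -0.13 (SE 0.17), -0.34 (SE 0.31) and -0.10 (SE 0.17).

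**Figure D2:**
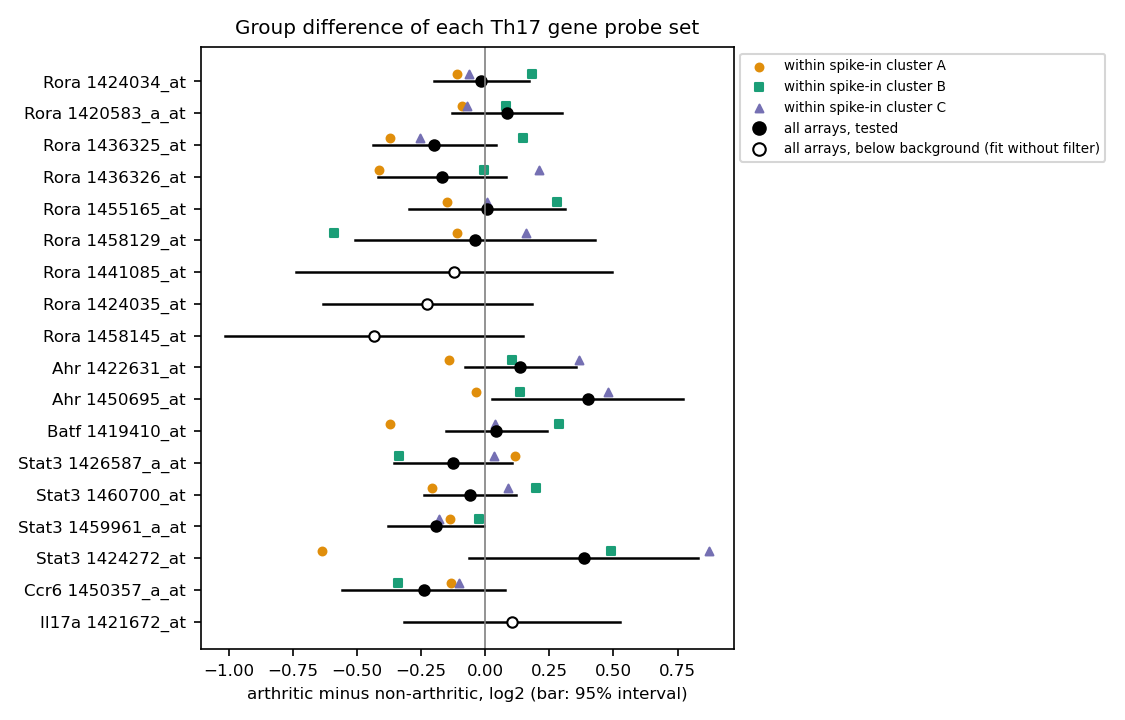
Arthritic minus non-arthritic difference of each probe set on the log2(intensity + 16) scale, with 95% intervals from limma; filled circles mark tested probe sets, open circles those below background, and coloured symbols the differences within spike-in clusters A, B and C. Tested differences run from -0.24 for Ccr6 to 0.40 for the dimmer Ahr probe set, and no probe set passed the adjusted threshold.

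Across the set, 0 of the 14 tested member probe sets differed between arthritic and non-arthritic mice at an adjusted p under 0.05 by limma, where 0.0481% of all tested probe sets did (13 of 27022, all higher in arthritic mice). At an unadjusted p under 0.05, 2 of the 14 were counted, with 15.7% over all tested probe sets, and the Wilcoxon rank-sum test called 0 after adjustment and 1 before it. Of the 14 differences 6 were positive and 8 negative, with a median of -0.03 against 0.003 over all tested probe sets. With the spike-in cluster as a block, 0 were called, where 0.0% of all probe sets were, and none had an unadjusted p under 0.05. Within cluster A, 13 of the 14 differences were negative, whereas 41.5% of all tested probe sets were positive there, and 0 of 14 were called in any cluster. Cluster A also held the arrays with pancreas transcripts, arthritic mouse 8 and non-arthritic mice 5 and 6. Their part in the signs of cluster A was not tested. Over all tested probe sets, cluster B called 2.73%, with 1.28% higher and 1.45% lower in arthritic mice, while clusters A and C each called 0.0%. At an unadjusted p under 0.05 the members numbered 0 in A, 4 in B and 1 in C. Between clusters themselves 7 of the 14 differed, against 48.1% of all tested probe sets.

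Mice of the arthritic group were also compared with the others in how far they lay from their group's median. For 0 of the 14 member probe sets did this spread differ after adjustment, where 0.0% of all tested probe sets did, and 2 of the 14 had an unadjusted p under 0.05, with 7.66% over all. The second Stat3 probe set, 1460700_at, had an SD of 0.35 in arthritic and 0.16 in non-arthritic mice, running from 10.17 to 11.45 and from 10.75 to 11.31. The difference in its mean deviation was 0.16, with an unadjusted p of 0.00564 and an adjusted p of 0.441 by limma. The spread of 12 of the 14 was larger in arthritic mice in the estimate, against 57.1% over all tested probe sets.

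Probe sets of the same gene did not vary together closely across mice. After group means were removed, the 6 pairs of Stat3 probe sets had Pearson correlations from -0.24 to 0.50 with a median of -0.01, and the 15 pairs of tested Rora probe sets from -0.28 to 0.50 with a median of 0.14. The 2 Ahr probe sets correlated at 0.30, and at 0.04 once cluster means were also removed. These probe sets target one transcript family each and share the arrays, so they are not replicates, and a result for 1 probe set does not stand for its gene.

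Of the 10 pairs among the 5 genes above background, each represented by its brightest probe set, the pair of Stat3 and Ccr6 varied together across mice. Pearson's r was 0.768 over 36 mice with group means removed, with an adjusted permutation p of 1e-04, and Spearman's rho was 0.642 (adjusted permutation p = 0.0005). The unadjusted permutation p of 1e-05 for r was the smallest that 100000 permutations can give. The correlation was 0.834 among the arthritic and 0.642 among the other mice, and without the 2 mice farthest from the Stat3 median it was 0.580. Within clusters it was 0.118 in A (n = 13), 0.920 in B (n = 16) and 0.748 in C (n = 7), so it was not seen in cluster A. Without arthritic mouse 14, the lowest for both genes, it was 0.657 over all mice and 0.877 in cluster B. The other 9 pairs had r from -0.06 to 0.21, and none passed.

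The relation of Stat3 to Ccr6 depended on the Stat3 probe set used. Against Ccr6, the other Stat3 probe sets had r of 0.21 for 1460700_at, 0.003 for 1459961_a_at and -0.07 for 1424272_at. Without arthritic mouse 14 the first of these was 0.45. When the Stat3 probe sets were averaged, r with Ccr6 was 0.342 (adjusted permutation p = 0.113). Among the Rora probe sets the brightest had r of 0.19 with Ccr6, whereas 1436326_at had 0.64.

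Stat3 and Ccr6 also moved with a measure of RNA quality, the log2 ratio of 3′ to 5′ signal of beta-actin, which is larger where transcripts are shorter or copied less far. The actin ratio ran from 0.18 over a median of 0.37 to 1.46 in the arthritic group and from 0.22 over 0.53 to 1.11 in the other, and arthritic mouse 14 had the highest. Stat3 1426587_a_at correlated with it at r of -0.681 (permutation p = 9e-05, adjusted p over 15 relations = 0.00135) and rho of -0.503 (permutation, adjusted p = 0.0337), and at -0.401 without the 2 farthest mice. Within clusters A, B and C that r was -0.635, -0.904 and -0.644. For Ccr6 r was -0.520 (adjusted permutation p = 0.0261) and rho -0.277 (adjusted permutation p = 0.194), with -0.216 without the 2 farthest mice. With cluster means also removed it was -0.646 (adjusted permutation p = 0.0118), and -0.485 on that basis without arthritic mouse 14. Within clusters the Ccr6 relation had values of -0.02 in cluster A, -0.81 in B and -0.07 in C. The other Stat3 probe sets had r of 0.44, 0.45 and 0.01 with the actin ratio. With the actin ratio taken out of both genes, Stat3 and Ccr6 correlated at 0.662. The other Stat3 probe sets then had r of 0.58, 0.31 and -0.08 with Ccr6, so that 1460700_at came close to the brightest one. With cluster means also removed, r was 0.578 for the brightest and 0.421, 0.212 and 0.354 for the others, so 1460700_at lay farther from it there. Ahr correlated with the same ratio of Gapdh at -0.458 (adjusted permutation p = 0.0276) and rho of -0.445 (adjusted permutation p = 0.0519), at -0.395 without the 2 farthest mice, and at -0.689, -0.258 and 0.180 within A, B and C. It did not pass with cluster means removed, at -0.351 (adjusted permutation p = 0.164).

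**Figure D3:**
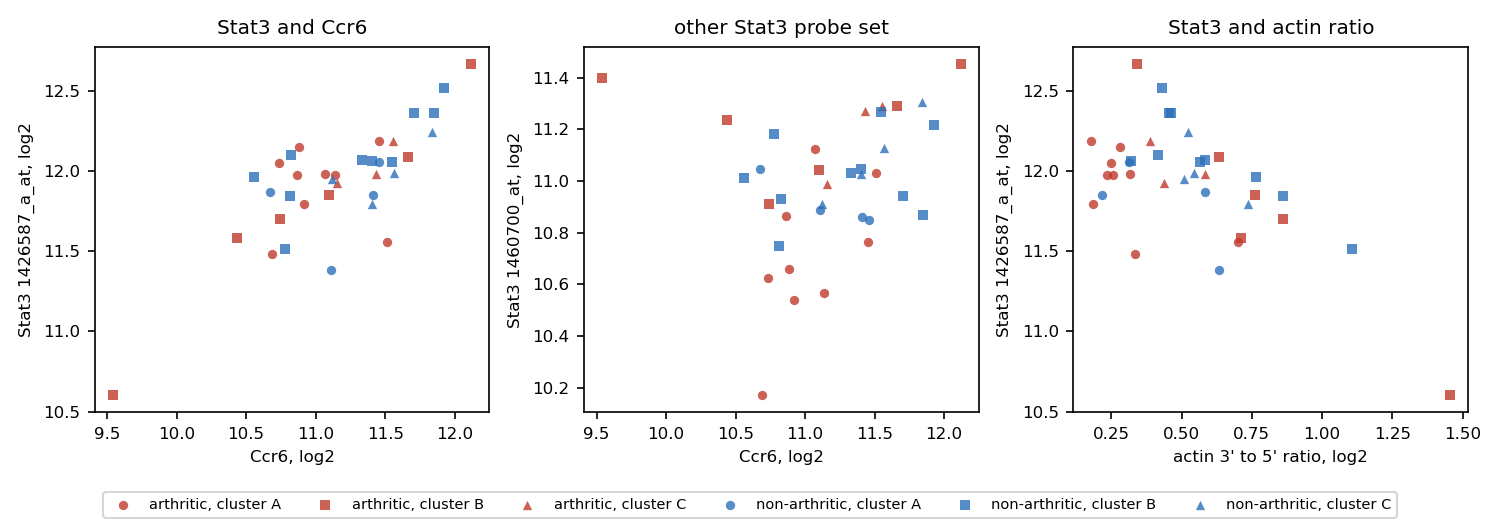
Log2 levels of 36 mice, by group (colour) and spike-in cluster (symbol): the brightest Stat3 probe set against Ccr6, the next Stat3 probe set against Ccr6, and the brightest Stat3 probe set against the actin 3′ to 5′ log2 ratio. With group means removed, Pearson's r is 0.768, 0.21 and -0.681, and arthritic mouse 14 lies at the low end for Ccr6 and the brightest Stat3 probe set but at 11.40, near the top, for the next one.

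Each member was taken by its brightest probe set, with group and cluster means removed. The genes most like it were listed by Pearson's r over 36 mice among 12426 genes. They were picked as the highest of many, so the values are a description without a test. Nearest to Rora were Cdc42se1 (r = 0.788), Slc44a2 (0.774) and Hvcn1 (0.732). Nearest to Ahr were Pcdh18 (0.756), Armcx1 (0.614) and Naxe (0.609), and nearest to Batf were Ms4a6b (0.685), Snap91 (0.635) and Nexn (0.626). Stat3 was most like Myo10 (0.833), Zbtb12 (0.825) and Gdap10 (0.821), and Ccr6 was most like Traf1 (0.897), Krit1 (0.872) and Mbd4 (0.870). For Ccr6 these 3 held in cluster B at 0.925, 0.886 and 0.937, whereas in cluster C Krit1 and Mbd4 were at 0.475 and 0.289. Among all genes ranked by likeness to Stat3, Ccr6 stood at position 11, and among those ranked for Ccr6, Stat3 stood at position 25.

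The 5 genes, each by its brightest probe set, were then set against the mean levels of 8 marker lists, so the values hold for those probe sets. The lists cover cell types a spleen sample can hold. Of the 40 relations 6 passed adjustment. With cluster means also removed, 3 of these 6 still passed: Rora with B cell markers (r = 0.539), Ahr with gamma delta and innate lymphoid markers (0.608) and Batf with erythroid markers (-0.499). Rora with T cell markers (0.379), Rora with stroma (0.462) and Batf with B cell markers (0.424) did not pass then, and Rora with erythroid markers, at -0.403 before, passed at -0.504. Rora varied with B cell markers at r of 0.566 (adjusted permutation p = 0.005) and rho of 0.543 (adjusted permutation p = 0.00816), and all 8 B cell markers had a positive r with it. Within clusters A, B and C this r was 0.490, 0.685 and 0.302, and without the 2 farthest mice it was 0.462. Rora varied with stroma and endothelium markers at 0.557 (adjusted permutation p = 0.005) and rho of 0.580 (adjusted permutation p = 0.0048), at 0.538 without the 2 farthest mice, and at 0.438, 0.478 and 0.476 within clusters. With T cell markers, the list nearest to Th17 cells, r for Rora was 0.486 (adjusted permutation p = 0.021) and rho 0.424 (adjusted permutation p = 0.0568), with 0.403 without the 2 farthest mice. Within clusters A, B and C the last relation was 0.511, 0.041 and 0.602, so it was not seen in cluster B.

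Ahr varied with the markers of gamma delta and innate lymphoid cells at r of 0.635 (adjusted permutation p = 0.001) and rho of 0.678 (adjusted permutation p = 0.0008). Without the 2 farthest mice r was 0.618, with 0.571 in cluster A, 0.747 in B and 0.474 in C. Of the 8 markers of that list 5 had a positive r with Ahr, from -0.06 to 0.53 with a median of 0.26, so the relation came from some of the markers. Ncr1, a receptor of natural killer and some innate lymphoid cells, led with 0.53. Sox13 (0.50), Gzmb (0.46), Il18r1 (0.37) and Blk (0.15) came next. The other markers, Id2 (-0.03), Zbtb16 (-0.05) and Kit (-0.06), did not rise with Ahr. With cluster means also removed, Id2 and Kit were at 0.20 and 0.12 and Zbtb16 at -0.14.

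Batf varied against erythroid markers, at r of -0.659 (adjusted permutation p = 0.0008) and rho of -0.581 (adjusted permutation p = 0.0048), and each of the 7 erythroid markers had a negative r, from -0.67 to -0.53. Within clusters A, B and C the list gave -0.582, -0.420 and -0.477, and without the 2 farthest mice -0.611. Batf varied with B cell markers at 0.523 (adjusted permutation p = 0.00936) and rho of 0.480 (adjusted permutation p = 0.0263), with 0.431 without the 2 farthest mice and 0.632, 0.131 and 0.661 within A, B and C. No relation of Stat3 or Ccr6 to a marker list passed adjustment. The mean level of the erythroid list ran from 11.60 to 13.43 in the arthritic group and from 12.33 to 13.46 in the other. That of stroma ran from 9.45 to 10.75 and from 9.64 to 11.09. No marker of any list was called between groups. The part of cell composition in the values of Rora, Ahr and Batf was not tested.

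**Figure D4:**
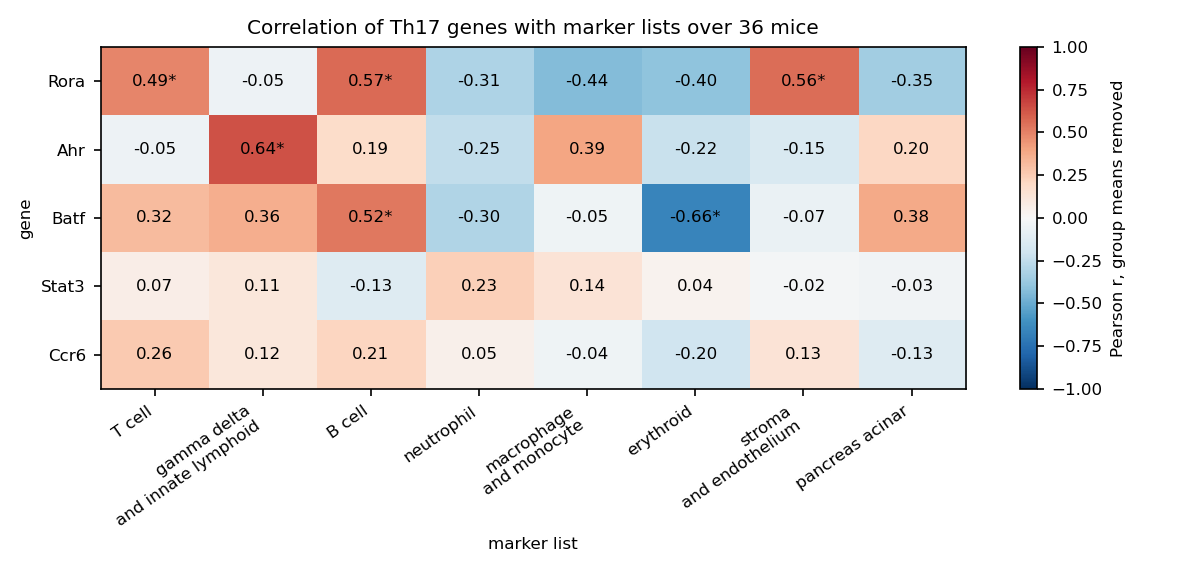
Pearson's r over 36 mice, with group means removed, between the brightest probe set of each of the 5 genes above background and the mean level of each marker list. Colour gives r. The strongest values are -0.659 for Batf with erythroid markers and 0.635 for Ahr with gamma delta and innate lymphoid markers.

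The pathway around the members was read from 6 lists of 73 genes, of which 69 had a probe set and 51 were above background. None of the 51 was called between arthritic and non-arthritic mice by limma (lowest adjusted p of 0.188), and 8 had an unadjusted p under 0.05, where 15.7% of all tested probe sets did. Of the 51 differences 32 were positive and 19 negative, against 50.9% positive over all tested probe sets, with a median of 0.03 against 0.003. The Wilcoxon rank-sum test called 0 of all tested probe sets. Of the named genes below, Tgfbr2, Il1r1, Cyp1b1, Zc3h12a and Il10rb had positive differences overall and negative ones in cluster A, at -0.21, -0.22, -0.05, -0.23 and -0.03, and Il1b was negative in clusters A and B, at -0.21 and -0.28. Fosl2 and Nqo1 were at 0.01 in cluster C, Bcl6 was at 0.21 in cluster B and Tbx21 at 0.10 in cluster C, each against a negative difference overall. Tgfb3 and Smad3 were negative in each cluster.

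Of 8 cytokines that induce or sustain Th17 cells, 4 were above background. Il6, the main inducer, had a mean of 5.50, Il21 of 5.60 and Il23a, a subunit of IL-23, of 5.56, all below background in spleen. Tgfb3, a transforming growth factor beta, had a mean of 6.80 ± 0.57 in the arthritic against 7.32 ± 0.65 in the non-arthritic group (SD, n = 18 each), a difference of -0.53 (SE 0.20, adjusted p = 0.189). Il1b, whose receptor the antagonist encoded by Il1rn blocks, was at 10.61 ± 0.56 and 10.45 ± 0.61, a difference of 0.16 (SE 0.18, adjusted p = 0.692). Of 9 cytokine receptors 8 were tested. Tgfbr2 differed by 0.14 (SE 0.07, adjusted p = 0.307) and Il1r1, the signalling receptor for interleukin 1, by 0.17 (SE 0.09, adjusted p = 0.341).

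Among 18 signalling and transcription partners 15 were tested, with 11 differences positive and 4 negative. The smallest p belonged to Smad3, a carrier of transforming growth factor beta signals, at 9.96 ± 0.24 against 10.15 ± 0.17 (SD, n = 18 each), a difference of -0.19 (SE 0.07, adjusted p = 0.188). Fosl2, an AP-1 factor of Th17 cells, differed by -0.24 (SE 0.11, adjusted p = 0.264). Of 8 aryl hydrocarbon receptor partners and targets 4 were tested. Cyp1b1, an enzyme that the receptor induces, differed by 0.23 (SE 0.10, adjusted p = 0.246) and Nqo1 by -0.23 (SE 0.11, adjusted p = 0.321), while Cyp1a1, the classical target, was below background with a mean of 5.74.

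Of 16 receptors and targets of interleukin 17 and 22, 12 were tested, with 9 differences positive and 3 negative. Zc3h12a, a ribonuclease that degrades inflammatory transcripts, differed by 0.25 (SE 0.10, adjusted p = 0.220) and Il10rb, a subunit of the interleukin 22 receptor, by 0.13 (SE 0.05, adjusted p = 0.232). Ccl20, the ligand of Ccr6, had a mean of 4.98, below background. Of 14 genes of restraining and other helper programmes 8 were tested. Tbx21, the factor of Th1 cells, differed by -0.17 (SE 0.09, adjusted p = 0.366) and Bcl6, the factor of follicular helper cells, by -0.22 (SE 0.13, adjusted p = 0.396). Ifng and Il4, the cytokines of Th1 and Th2 cells, were below background at 6.07 and 6.16, as Il17a was.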

How the data were processed

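RNA of 36 individual spleens, extracted with Trizol and labelled with biotin per the labels, was hybridised to Affymetrix mouse arrays. The deposited values are probe set intensity on a linear scale, made by the authors with MAS5 per the submitters' processing notes; its version is not given in the labels or notes. The trimmed mean of each array, with 2% taken off each end, was 500.0, so arrays had been scaled by 1 factor. No detection calls or probe sequences were used here.

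Levels were analysed as log2(value + 16), a scale that understates the change of dim probe sets. Groups and numbers came from sample titles, which give 18 arrays per group; the animal total in the design text differs from this. After 64 control probe sets were left out, probe sets with a mean under the 40th percentile were filtered, leaving 27022 of 45037. The platform annotation gave 1 gene for 34945 probe sets, several for 932 and none for 9160, and a gene was represented by its brightest probe set.

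Groups were compared in R 4.3.3 by limma 3.58.1 (a linear model with an eBayes variance trend, two-sided, Benjamini-Hochberg over all tested probe sets, threshold 0.05), after a check on simulated data. Spread used absolute deviations from the group median. Correlations used values with group means removed and two-sided permutation tests with 100000 resamples, adjusted within each family (scipy 1.17.1). Spike-in clusters came from Ward clustering of 18 hybridisation control probe sets, each array's mean control level removed. Pathway genes named are the 2 with the smallest p in each list. Members, lists and tests were chosen with earlier results of these data known. Same-numbered arthritic and non-arthritic mice were not treated as pairs in the main fit. Of 18 such pairs 11 correlated above 0.1, with a median of 0.15 and the lowest at -0.23. The shared number gave the best correlation in 2 pairs. Some same-numbered mice, such as those numbered 1, 2, 5 and 6, also share a spike-in cluster. Alternatives were other pseudocounts, filters, scaling, blocks, tests and subsets of arrays.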

Additional observations from a re-analysis of the deposited data

How the results depend on the processing

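No member and no pathway gene was called under any of the 12 alternative settings or with any 1 array left out. The number of member genes above background was 5 under each of 3 alternatives. The 13 probe sets called over the whole table became 0 with no filter, with no trend, with the spike-in cluster or clusters by control level as a block, and with the Wilcoxon rank-sum test; 21 with the filter at the 60th percentile; 1 with quantile normalization; 236 without the 3 arrays with pancreas transcripts; 37 with the actin ratio as a covariate; and 369 with the replicate block, which called no member. Leaving out 1 array gave 0 to 389. Counts other than 0 came without arthritic mouse 1 (3), 10 (31), 11 (48), 12 (19), 13 (38), 14 (1), 16 (1) or 17 (37) and without non-arthritic mouse 1 (36), 2 (389), 5 (250) or 6 (20). The cause was not tested.

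The Rora difference turned to 0.0329 with the cluster block, 0.00269 with clusters by control level and 0.00596 with the actin covariate, and ran from -0.0387 to 0.0165 with 1 array left out. That of Stat3 turned to 0.00261 with the mean of its probe sets, and that of Ahr was 0.27 (permutation p = 0.0348, unadjusted). The Ahr mean includes the dimmer probe set 1450695_at, which differed between spike-in clusters, and was not fitted with the cluster as a block. Leaving out 1 array gave 0.11 to 0.17 for Ahr, 0.02 to 0.08 for Batf, -0.17 to -0.05 for Stat3 and -0.30 to -0.15 for Ccr6. With the mean of probe sets 4 of 10 pairs passed in place of 1. They were Batf and Stat3 (r = 0.619), Rora and Stat3 (turned to 0.52), Rora and Ccr6 (0.445) and Rora and Batf (0.431). Stat3 and Ccr6 did not pass there, at 0.342 (adjusted permutation p = 0.113). Rora and Ahr turned to 0.12 and did not pass. With the actin ratio taken out 2 pairs passed, with Rora and Ccr6 (0.456) added, and this setting turned Rora and Ahr to 0.0927, Rora and Stat3 to 0.25 and Ahr and Stat3 to -0.10. Rora and Batf were at -0.0928 after quantile normalization. Without arthritic mouse 14, 1 pair passed, and Rora was at 0.00141 with Ahr and 0.0703 with Stat3. Blocks by control level, the actin ratio settings and the omission of mouse 14 were chosen after seeing the data. Signal over background limits Il17a and the dim Rora probe sets.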
